A study of Rosa chinensis with 4 samples.

Results

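Twin H3K9ac peaks are pairs of acetylated chromatin regions that lie next to each other, parted by a short gap in which no peak was called, with no further peak nearby. They were taken from the H3K9ac peak list on the RchiOBHm assembly of the China rose, Rosa chinensis, as 2 successive peaks on 1 of the 7 chromosomes. The gap was at most 400 bp, both peaks were 200 to 1499 bp wide, and no other peak lay within 1000 bp of the pair. Of 46391 peaks on the chromosomes, 3930 (8.47%) formed 1965 such pairs, and no peak belonged to more than 1 pair. The whole list holds 46596 peaks. Because positions and widths chose the pairs, and gaps, widths and heights come from the same peak calls, these are described here without a test.

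H3K9ac is histone H3 acetylated at lysine 9, a mark laid down by histone acetyltransferases and removed by histone deacetylases. In plants it is known from nucleosomes just inside the start of transcribed genes, while the promoter before the start is often depleted of nucleosomes. A gap between acetylated regions can therefore lie over a gene end or inside a gene, and a peak list shows only that the signal there stayed under the calling threshold.

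The study profiled petals at the onset of flower opening by chromatin immunoprecipitation and sequencing (ChIP-seq), using 1 antibody for H3K9ac and another for H3K27me3, each beside its own input. Each of these 4 groups is 1 library, no genotype or treatment differed between them, and the number of plants behind a library is not given in the sources used here. Peak lists of the H3K9ac library are the basis of all values, and the other 3 groups were not analysed here. With 1 library there was no spread between plants and no test across samples, and no p-value is printed. Shares carry exact 95% binomial intervals and folds exact 95% Poisson intervals, all covering counting error only, and peaks of 1 library are not replicates. Peak height is the fold enrichment computed by the authors, a linear ratio that sets the fragments stacked at a summit against the background around it. In recovering fragments from this ratio, 1 was taken as added to both, so folds are lower than the plain quotient. The summits of twin peaks held a median of 21 fragments, with a range of 9 to 236.

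The pairs were what remained of a larger class. In all, 8839 successive peaks were at most 400 bp apart. Of these, 3362 included a peak narrower than 200 bp, 716 others included one of 1500 bp or more, and 2796 had fitting widths but another peak within 1000 bp. Twin pairs were set beside 2 sets from the same list. Lone peaks, of the same widths and with no peak within 1000 bp, numbered 18654. Wider-gap pairs, chosen by the same limits but with a gap above 400 and up to 1000 bp, numbered 1158.

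The gaps were mostly short. Their median was 191 bp, with quartiles of 142 and 276 bp. No 2 peaks of the list lay closer than 101 bp, so shorter interruptions were not visible. The class of 101 to 120 bp held 253 pairs, that of 201 to 220 bp held 140, and that of 381 to 400 bp held 64. The number did not drop off beyond the limit, with 51 pairs in the next class of 20 bp, so 400 bp did not mark a break in the distribution. The summits of a pair lay a median of 721 bp apart (quartiles 552 and 960), and the pair as a whole spanned a median of 1267 bp.

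**Figure D1:**
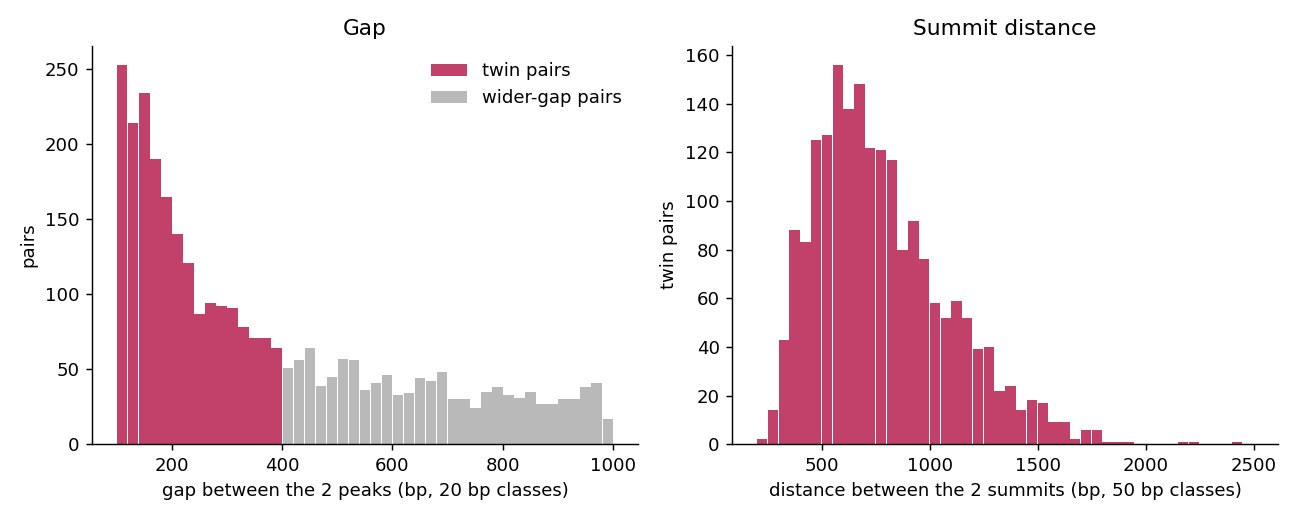
Number of pairs by gap in classes of 20 bp (left; twin pairs in red, wider-gap pairs in grey) and number of twin pairs by the distance between their summits in classes of 50 bp (right). Pairs were most frequent at the shortest gaps, with 253 at 101 to 120 bp and 64 at 381 to 400 bp, and the median summit distance was 721 bp.

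Values just inside and outside each limit of the choice were as follows. Pairs with a gap of 381 to 400 bp had a median fold of 6.78 for the higher and 3.69 for the lower peak, and pairs above 400 and up to 420 bp had 7.30 and 3.31. The 278 pairs whose narrower peak was 200 to 219 bp wide had medians of 6.36 and 3.20, against 5.99 and 3.25 for the 314 pairs left out at 180 to 199 bp. For a wider peak of 1400 to 1499 bp the medians were 9.60 and 3.44 over 44 pairs, and for 1500 to 1599 bp they were 9.85 and 4.34 over 45 pairs. The 97 pairs with another peak 1001 to 1100 bp away had 7.03 and 3.44, and the 81 pairs left out at 901 to 1000 bp had 6.45 and 3.57.

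Heights within a pair ranged from equal to very unequal. Unsorted, the left peaks had a median fold of 4.65 and a width of 462 bp, and the right peaks 4.56 and 439 bp. Sorted within each pair by height, the higher peak had a median fold of 6.89 (quartiles 4.92 and 10.1), with 32 fragments at the summit and a width of 654 bp. The lower peak had a median fold of 3.51 (quartiles 3.05 and 4.32), with 16 fragments and a width of 323 bp. Lone peaks had a median fold of 6.26 and a median width of 593 bp, and these stand between the sorted values. The unsorted median folds of left and right peaks both lay below that of lone peaks. Sorting draws higher and lower peaks apart in any set, and how much of the difference it makes here was not tested. The log2 folds of left and right peaks had a Pearson correlation of -0.238 over all pairs and -0.396 in pairs within 1 gene. All chromosome peaks together had a median fold of 4.68 and a median width of 446 bp.

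The ratio of the higher to the lower fold had a median of 1.76 and reached 9.16, and it was at least 2 in 810 pairs (41.2%, 39.0 to 43.4). In 706 of 1965 pairs (35.9%, 33.8 to 38.1) the Poisson intervals of the folds were separate, against 30.6% of all successive peaks at most 400 bp apart. Both peaks were within a ratio of 1.25 in 448 pairs (22.8%, 21.0 to 24.7), and the ratio was 4 or more in 160 (8.14%, 6.97 to 9.44). The higher peak was also the wider one in 1576 pairs (80.2%, 78.4 to 81.9). It lay on the left of the pair, toward lower coordinates, in 1019 pairs (51.9%, 49.6 to 54.1). The local background had a median of 3.59 fragments for left peaks and for right peaks. Within pairs the log2 backgrounds of left and right peaks had a Pearson correlation of 0.519, so equal medians do not mean equal backgrounds in each pair.

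Pairs lay within single genes more than anywhere else. Both summits fell inside the same protein-coding gene in 1216 pairs (61.9%, 59.7 to 64.0). In 231 pairs (11.8%, 10.4 to 13.3) 1 summit was inside a gene and the other outside, in 104 (5.29%, 4.34 to 6.38) the summits lay in different genes, and in 414 (21.1%, 19.3 to 22.9) neither summit was in a protein-coding gene. Among all successive peaks at most 400 bp apart, 60.1% had both summits in the same gene, so this share is near that of short gaps in general. Counted by summit, 2871 of 3930 twin summits (73.1%, 71.6 to 74.4) were in a protein-coding gene, against 63.8% of all chromosome peaks, 59.9% (59.1 to 60.6) of lone peaks and 66.6% (64.7 to 68.5) of summits of wider-gap pairs. Among lone peaks of at least 1000 bp, close to the median of 1037 bp that both peaks of a twin pair cover together, the share was higher, at 84.5% (83.1 to 85.9).

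Placement shifted with the length of the gap. At gaps of 101 to 150 bp, 67.4% of pairs (63.4 to 71.2) were inside 1 gene, and at 301 to 400 bp 55.5% (50.3 to 60.6). For wider gaps of 601 to 1000 bp the share was 39.4% (35.7 to 43.3). The share with 1 summit in a gene went the other way, from 6.69% (4.80 to 9.03) at 101 to 150 bp to 18.9% (15.1 to 23.3) at 301 to 400 bp, and that of summits in 2 genes from 3.26% (1.97 to 5.04) to 7.20% (4.80 to 10.3). The share outside genes stayed between 18.4 and 22.6% over the 4 gap classes of the twin pairs. A longer gap also covers more sequence, so these shares alone do not separate length from place.

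**Figure D2:**
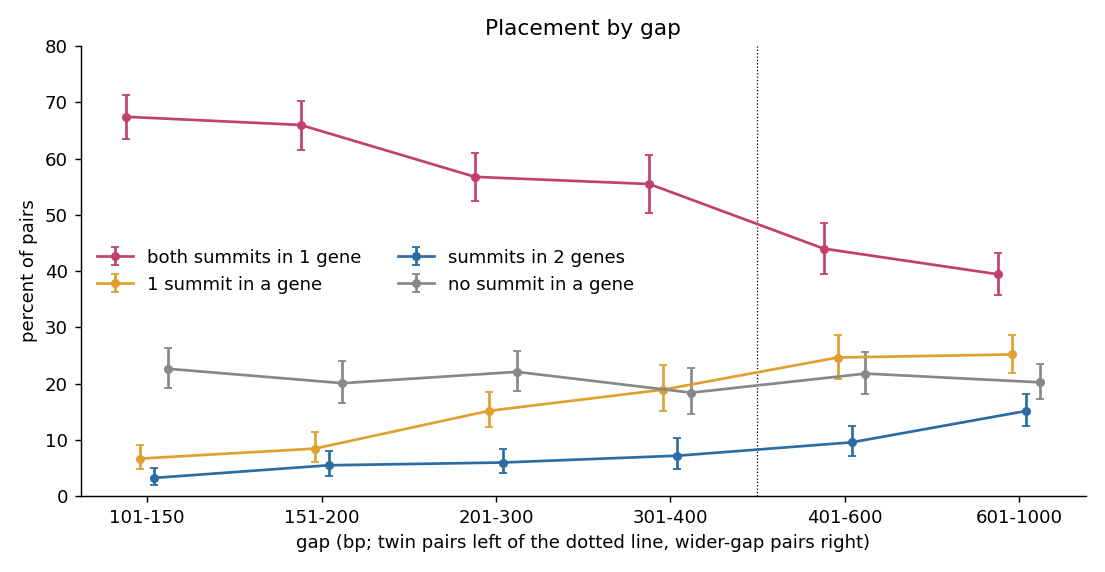
Percent of pairs in each placement by gap class, with exact 95% binomial intervals. Twin pairs are left of the dotted line and wider-gap pairs right of it. The share with both summits in 1 gene was 67.4% at 101 to 150 bp and 39.4% at 601 to 1000 bp.

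Around gene ends, gaps were found in separate places. The RefSeq table used here gives no strand, so a gene end can be the start or the end of transcription. Gap middles were counted in stretches of 100 bp from the nearest end of a protein-coding gene. The 100 bp just outside the end held 112 gap middles (5.70% of pairs), the stretch 200 to 300 bp inside held 27 (1.37%), and that 600 to 700 bp inside held 140 (7.12%), the most of any stretch. From 200 bp outside to 100 bp inside there were 245 gap middles (12.5%, 11.0 to 14.0), and from 400 to 1200 bp inside there were 883 (44.9%, 42.7 to 47.2). Lone summits filled the space between, with 34.6% of them (33.9 to 35.3) at 100 to 400 bp inside, where 112 gap middles (5.70%, 4.72 to 6.82) fell.

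The summits of the higher peaks were placed much as those of lone peaks. Of the higher peaks, 299 (15.2%) had their summit 200 to 300 bp inside a gene end, the most populated stretch, and of lone peaks 2752 (14.8%) did. Summits of the lower peaks were spread out. Their most populated stretches, 700 to 800 and 800 to 900 bp inside, held 93 (4.73%) each, while 91 (4.63%) lay 200 to 300 bp inside and 41 (2.09%) 200 to 300 bp outside.

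**Figure D3:**
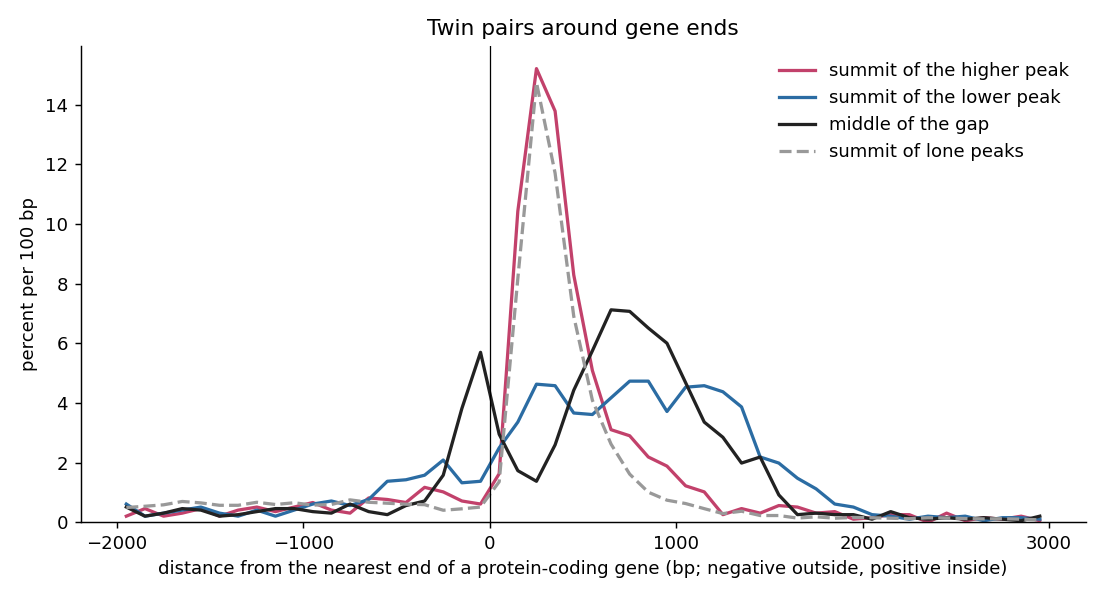
Percent of twin pairs or lone peaks per 100 bp by distance from the nearest end of a protein-coding gene, negative outside and positive inside the gene. Summits of higher peaks (red) and lone peaks (dashed grey) peak at 200 to 300 bp inside, with 15.2% and 14.8%, whereas gap middles (black) have their maximum at 600 to 700 bp inside (7.12%) and a smaller local maximum just outside the end (5.70%).

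Relative to length, the gaps of all twin pairs together held more gene ends than the peaks beside them. The gaps of twin pairs, 416 kb in all, held 240 ends of protein-coding genes, or 0.577 per kb (0.506 to 0.655). The peaks of the same pairs held 0.268 ends per kb (0.246 to 0.291), and lone peaks 0.254 (0.245 to 0.263). Gaps of 101 to 150 bp held 0.400 per kb (0.268 to 0.575) and those of 201 to 300 bp 0.670 (0.537 to 0.825), with overlapping intervals. The peaks beside gaps of 101 to 150 bp held 0.265 (0.226 to 0.310). At 151 to 200 bp, gaps held 0.476 (0.339 to 0.651) and their peaks 0.294 (0.249 to 0.344). In both of these shorter classes the intervals of gaps and peaks overlapped, so the difference was not resolved there. Wider gaps held 0.575 (0.522 to 0.631), a value inside the interval of the twin pairs.

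Pairs within 1 gene mostly had the higher peak toward the gene end. The peak nearer an end had a median fold of 6.26, a median width of 601.5 bp and its summit a median of 329.5 bp inside. The farther peak had a fold of 3.69, a width of 331.5 bp and its summit 1184 bp inside, counted from that same end. The nearer peak was the higher one in 908 of 1216 pairs (74.7%, 72.1 to 77.1). This compares with 67.5% among all successive peaks in 1 gene at most 400 bp apart and 69.9% (65.6 to 74.0) in wider-gap pairs. Where the intervals of the folds were separate it was the higher one in 420 of 473 pairs (88.8%, 85.6 to 91.5). Wider-gap pairs with separate intervals had it higher in 152 of 183 (83.1%, 76.8 to 88.2), and these intervals overlap, so the rise was not particular to twin pairs. On each of the 7 chromosomes the nearer peak was higher in 71.6 to 80.8% of all twin pairs within 1 gene.

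**Figure D4:**
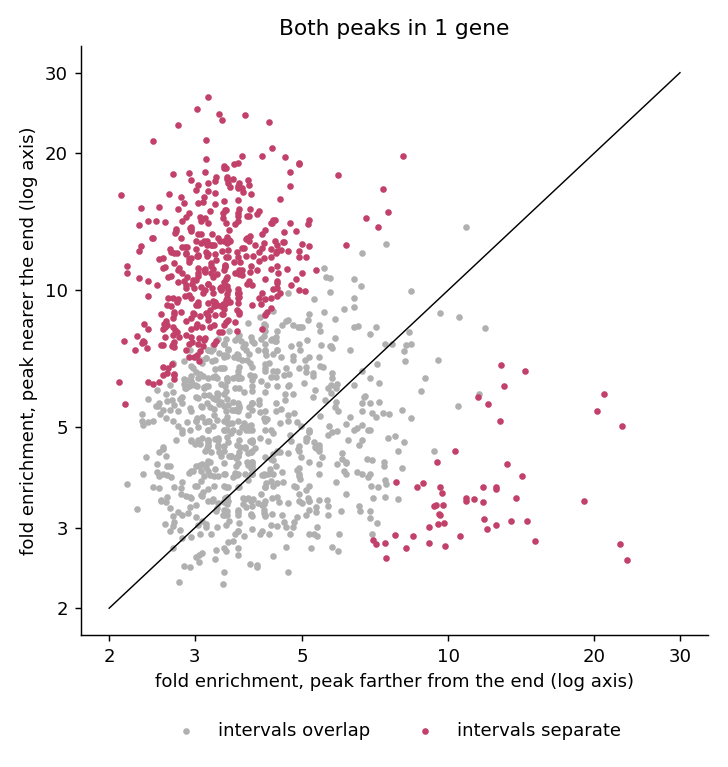
Fold enrichment of the peak nearer the gene end against that of the farther peak for the 1216 pairs within 1 gene, both on log axes, with the line of equality. Red points are pairs whose Poisson intervals are separate, and 420 of these 473 lie above the line.

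The order held close to gene ends and was not seen deep in genes. With the nearer summit 300 to 600 bp inside, the nearer peak was higher in 370 of 463 pairs (79.9%, 76.0 to 83.5), and at 600 to 1000 bp in 80 of 115 (69.6%, 60.3 to 77.8). At more than 2000 bp it was higher in 31 of 65 (47.7%, 35.1 to 60.5). These 65 pairs lay in genes with a median length of 13110 bp, and the median folds of their nearer and farther peaks were 4.52 and 4.29. Lone peaks in genes were lower with distance over the first stretches, with a median fold of 8.11 within 300 bp of an end and 4.17 at 1000 to 1500 bp, but those more than 2000 bp inside had 4.97 over 586 peaks. The farther peaks of twin pairs at 1000 to 1500 bp had a median of 3.51 over 515 pairs. Their distance was counted from the end next to the nearer peak, and that of lone peaks from their own nearest end. The medians of farther and lone peaks are therefore not on the same measure of distance.

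**Figure D5:**
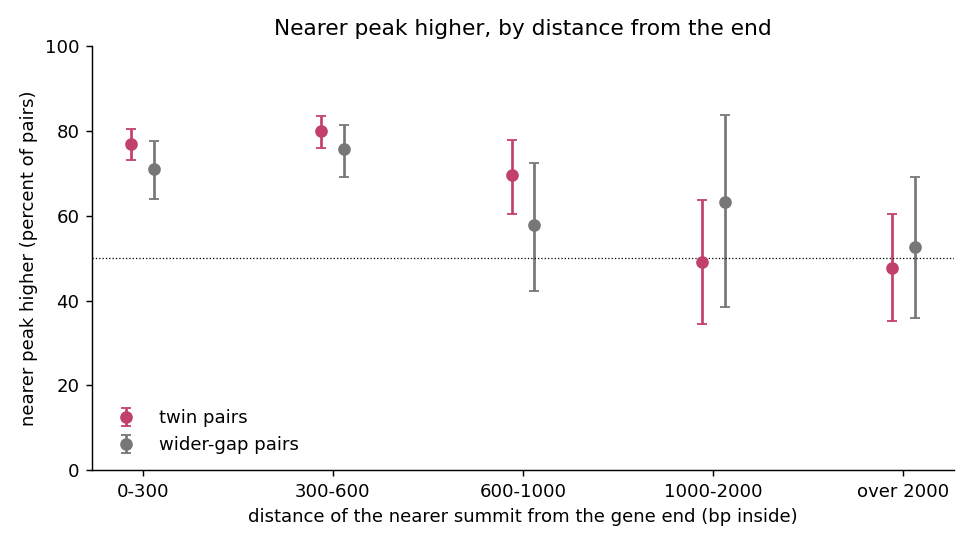
Percent of pairs within 1 gene whose nearer peak was the higher, by the distance of its summit from the gene end, for twin pairs (red) and wider-gap pairs (grey), with exact 95% binomial intervals. The dotted line marks 50%. For twin pairs the share was 79.9% at 300 to 600 bp and 47.7% beyond 2000 bp.

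Some of these pairs had a peak at either end of a short gene. In 930 of the 1216 pairs (76.5%, 74.0 to 78.8) both summits were nearer the same end, in genes with a median length of 4426.5 bp, and the nearer peak was higher in 77.6% (74.8 to 80.3). In the other 286 (23.5%, 21.2 to 26.0) each summit was nearer its own end, and these genes had a median length of 2021.5 bp. The farther summit then lay a median of 697 bp from the other end. Here the peak closer to its end was higher in 65.0% (59.2 to 70.6).

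Pairs were found in genes of every length class. Of 18650 protein-coding genes with a summit inside, 1219 (6.54%, 6.19 to 6.90) held both summits of a pair. Their median length was 3810 bp, against 3414 bp for all genes with a summit and 2767.5 bp for all 30798 protein-coding genes on the chromosomes. The share with a pair was 1.49% (0.795 to 2.53) for genes of up to 1000 bp, 5.37% (4.59 to 6.24) at 1001 to 2000 bp and 8.48% (6.94 to 10.2) for genes over 10000 bp. A gene must have room for 2 summits, so short genes are bound to hold fewer pairs. Among the 7252 genes with at least 2 summits, whose median length was 3915.5 bp, 16.8% (16.0 to 17.7) held a pair. That share was 54.2% (32.8 to 74.4) of 24 genes of up to 1000 bp, 25.6% (22.2 to 29.2) at 1001 to 2000 bp and 16.2% (13.4 to 19.4) over 10000 bp. It was thus not higher in long genes. In a short gene 2 summits must lie close together, so this share cannot tell how gene length bears on pairs. In 872 of the 1219 genes the pair held the only summits inside the gene.

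The 5 most unequal pairs with separate intervals all lay within 1 gene, and in 4 of them the higher peak was the one nearer a gene end. Coordinates are on RchiOBHm, with genes from the RefSeq table of RchiOBHm-V2, which pairs them with identifiers and not with product names. In LOC112170472 on chromosome 6 (65701373 to 65703479), a peak from 65702530 to 65703536 with a fold of 21.2 (17.0 to 26.1, 86 fragments) had its summit 291 bp inside the gene. Its twin, from 65702114 to 65702354 across a gap of 175 bp, had a fold of 2.47 (1.33 to 4.25, 11 fragments). The high peak was again the one toward the gene end in the next pair. LOC112173624 on chromosome 6 (59054459 to 59058103) had folds of 23.0 (18.7 to 28.0) at 340 bp and 2.77 (1.60 to 4.52) at 1376 bp inside, with a gap of 106 bp.

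On chromosome 2, LOC112188138 (65319392 to 65322300) had folds of 26.6 (21.9 to 31.9) at 464 bp and 3.20 (1.77 to 5.40) at 1482 bp from its end. LOC112187787 (4504514 to 4507049) had 24.98 (20.4 to 30.3) at 408 bp and 3.03 (1.68 to 5.11) at 1287 bp. The pair with the largest ratio, 9.16, spanned the short gene LOC112167768 on chromosome 5 (10468496 to 10470168), with 1 peak at each end. Its left peak had a fold of 23.4 (18.9 to 28.5, 94 fragments) and its right peak 2.55 (1.34 to 4.49, 10 fragments), and both summits lay 212 bp inside. Lower peaks with 10 to 14 fragments are near the lowest count in the list, 9, so their folds are known only roughly.

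Pairs of high peaks lay in other places than pairs in general. Of the 10 pairs whose lower peak was highest, 5 had summits in 2 neighbouring genes, 2 had 1 summit in a gene, 2 had none and 1 lay within 1 gene. Ranked by the fold of the lower peak, placement was alike in the weakest classes and differed in the strongest. With that fold below 3, 66.0% of 435 pairs (61.3 to 70.4) were within 1 gene, 2.53% (1.27 to 4.48) joined 2 genes and 10.3% (7.65 to 13.6) had their gap at a gene end. With that fold from 3 to below 4, 67.5% of 907 pairs (64.3 to 70.5) were within 1 gene and 10.4% (8.46 to 12.5) had their gap at a gene end, that is with an end inside the gap or up to 100 bp beside it. From 5 to below 7, the shares within 1 gene and at a gene end were 44.8% (38.0 to 51.8) and 28.3% (22.3 to 34.9) of 212 pairs. With a fold of 7 or more, 25.4% of 71 pairs (15.8 to 37.1) were within 1 gene, 28.2% (18.1 to 40.1) joined 2 genes and 52.1% (39.9 to 64.1) had their gap at a gene end. Among pairs within 1 gene, the nearer peak was higher in 76.6% (73.1 to 79.9) at 3 to below 4 and in 60.0% (49.4 to 69.9) at 5 to below 7. In the 18 pairs at 7 or more it was higher in 50% (26.0 to 74.0). The median ratio of the folds was 1.78 in the class of 3 to below 4 and 1.28 in that of 7 or more.

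Over all pairs, 289 gaps lay at a gene end (14.7%, 13.2 to 16.4), against 14.2% of all gaps of at most 400 bp. Wider gaps did so in 36.5% (33.7 to 39.4), over a longer stretch each. In 82 of the 289 pairs, ends facing both ways lay at the gap. In the other 207 the peak on the gene side had a median fold of 6.61 and a width of 674 bp, and the outer peak 4.28 and 392 bp. The gene-side peak was higher in 141 (68.1%, 61.3 to 74.4). When the end had to lie in the gap itself this was 55.2% of 165 pairs (47.2 to 62.9), an interval that includes 50%, so the order of height across a gene end was not resolved by this stricter measure. Among the 231 pairs with 1 summit inside a gene and 1 outside, the inside peak was higher in 154 (66.7%, 60.2 to 72.7), with median folds of 6.54 inside and 4.29 outside.

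The pair whose lower peak was the highest of all had 1 summit in a gene. On chromosome 4, a peak from 26012428 to 26013731 with a fold of 26.0 (21.3 to 31.4, 106 fragments) covered the short protein-coding gene LOC112200872 (26013037 to 26013668). Its twin, from 26013903 to 26015327 across a gap of 171 bp, had a fold of 18.5 (14.8 to 22.9, 84 fragments) and lay over the lncRNA gene LOC112200272 (26013926 to 26015734), which makes a long non-coding RNA. A similar arrangement was found on chromosome 3. The peak from 32585819 to 32586934, with a fold of 12.1 (9.21 to 15.7), had its summit in the protein-coding LOC112192277 (32579911 to 32586944), and the peak from 32587265 to 32587929, with 10.9 (8.19 to 14.2), lay in the lncRNA gene LOC112191388 (32587173 to 32589403). In both pairs the intervals of the folds overlapped.

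Pairs that joined 2 genes had the highest folds of any placement. Over these 104 pairs the median fold was 10.7 for the higher and 5.003 for the lower peak, against 6.99 and 3.45 in pairs within 1 gene. Wider-gap pairs that joined 2 genes had 9.41 and 3.92, against 7.03 and 3.63 over all wider-gap pairs, so this was not particular to twin pairs. The genes joined by the 104 twin pairs had a median of 147 bp between them (quartiles 87.25 and 199.5), and in 11 pairs they overlapped. The limits on gap and width hold the summits of a pair close together, so these genes are bound to be close neighbours.

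On chromosome 2 the gap between peaks from 758677 to 759195 and from 759386 to 759894 covered the whole space between LOC112188108, which ends at 759216, and LOC112185417, which starts at 759382. The folds were 10.4 (7.65 to 13.9, 44 fragments) and 13.3 (10.2 to 17.0, 60 fragments), with overlapping intervals. Also on chromosome 2, the peaks from 72899198 to 72899777 and from 72899933 to 72900503, with folds of 17.4 (13.8 to 21.6) and 12.1 (9.45 to 15.3), had their summits in LOC112190326 (72894463 to 72899767) and LOC112187835 (72899902 to 72903772). Gene and peak borders thus nearly met at the gap of 155 bp. A further pair on chromosome 2, with folds of 13.3 (10.01 to 17.3) and 11.3 (8.32 to 15.1), had its gap from the end of 1 peak at 13150036 to the start of the next at 13150198. There LOC112189134, ending at 13150252, and LOC112189133, starting at 13150116, overlap.

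On chromosome 4, LOC112196109 (4584053 to 4587168) and LOC112197398 (4587596 to 4591375) carried peaks of 12.6 (9.62 to 16.3, 57 fragments) and 12.1 (9.25 to 15.6, 58 fragments), 386 bp apart. On chromosome 6 the summits lay in LOC112169455 (64132141 to 64132750) and LOC112169454 (64133072 to 64134274), with folds of 15.0 (11.9 to 18.6) and 16.2 (12.6 to 20.5). The gap of 214 bp was there inside LOC112169454 rather than between the genes. The only pair within 1 gene among the 10 was in LOC112187942 on chromosome 2 (55617802 to 55624842), with 13.7 (10.6 to 17.5) at 735 bp and 10.9 (8.04 to 14.5) at 1399 bp from its end. In each of these 6 pairs the intervals overlapped.

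Pairs outside protein-coding genes were more even in height. Wider-gap pairs outside such genes also had a lower median ratio of the folds, 1.45 against 1.70 over all wider-gap pairs. In the 414 twin pairs outside such genes it was 1.504, against 1.87 in pairs within 1 gene. Their higher peaks had a median fold of 5.98 and their lower peaks 3.52, against 6.99 and 3.45 within 1 gene. The folds were separate in 108 of the 414 (26.1%, 21.9 to 30.6) against 473 of 1216 (38.9%, 36.1 to 41.7). The median summit distance of the 414 pairs was 631.5 bp, against 753 bp within genes. A summit lay in a lncRNA gene in 112 pairs (27.1%, 22.8 to 31.6) and in a pseudogene, a gene copy taken to have lost its function, in 53 (12.8%, 9.74 to 16.4). In 248 pairs (59.9%, 55.0 to 64.7) neither summit was in any annotated gene. The gap middle was more than 5000 bp from a protein-coding gene end in 186 pairs (44.9%, 40.1 to 49.9).

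The highest such pairs overlapped pseudogenes. The pair from 17041866 to 17044103 on chromosome 4, with folds of 12.6 (9.44 to 16.5) and 11.8 (8.77 to 15.5), reached into LOC112197546 (17043213 to 17046868). On chromosome 5 the pair from 87262690 to 87264471, with 12.1 (8.95 to 15.9) and 11.6 (8.53 to 15.3), reached into LOC112167692 (87263442 to 87276541). A pair on chromosome 7 from 31504034 to 31506227, added after its values were seen, had 9.59 (6.98 to 12.9) and 10.6 (7.84 to 14.0) and lay inside LOC112180363 (31501463 to 31514863). How reads with several matching places were handled is not given in the sources used here, and pseudogenes resemble other genes, so signal there is uncertain.

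At the narrowest gap of 101 bp, the 5 pairs with the highest lower peak were again of several kinds. On chromosome 1 the gap held the end of LOC112175986 (60894252 to 60897110), 1 summit lay in that gene and the other in LOC112184704 (60897242 to 60907621), with folds of 6.95 (4.73 to 9.89) and 16.4 (12.9 to 20.6). In LOC112187860 on chromosome 2 (8341216 to 8345466) the farther peak was higher, with 12.9 (9.84 to 16.5) at 625 bp against 6.85 (4.90 to 9.33) at 169 bp inside. In LOC112196202 on chromosome 4 (34209106 to 34214965) the nearer peak was higher, with 13.4 (10.2 to 17.4) at 335 bp against 4.86 (3.28 to 6.94) at 891 bp. LOC112190522 on chromosome 2 (37869434 to 37876782) likewise had 10.1 (7.36 to 13.5) at 281 bp and 4.43 (2.72 to 6.86) at 874 bp. LOC112172590 on chromosome 6 (67202472 to 67204327) held the summit of a peak of 19.9 (16.0 to 24.5). Its twin, from 67202184 to 67202850, had a fold of 6.71 (4.76 to 9.23). The summit of the twin lay outside the gene, although the peak reached into it.

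The 5 pairs with the widest gaps, 398 to 400 bp, had 3 members with both summits in 1 gene and 2 with neither summit in a gene. LOC112188473 on chromosome 2 (64442636 to 64445904) carried a peak toward each end, with folds of 5.81 (3.90 to 8.36) and 11.5 (8.69 to 14.9) and summits 2166 bp apart. LOC112194753 on chromosome 3 (25529977 to 25534054) had 10.9 (8.04 to 14.5) at 505 bp and 3.72 (2.25 to 5.83) at 1216 bp. LOC112197140 on chromosome 4 (12796889 to 12798693) had 16.7 (13.0 to 21.2) at 201 bp and 3.69 (2.13 to 6.02) at 1025 bp. The pair on chromosome 1 from 5074158 to 5076205 had both summits outside genes, with folds of 3.91 (2.73 to 5.45) and 4.95 (3.47 to 6.86), although its left peak overlapped the end of LOC121052418 (5071193 to 5074701). The pair on chromosome 4 from 1370737 to 1371714, 12133 bp from a protein-coding gene end, had 4.18 (2.50 to 6.64) and 4.43 (2.68 to 6.94), and in both the intervals overlapped.

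Twin pairs occurred on every chromosome at like rates. There were 4.404 pairs per Mb (3.98 to 4.86) on chromosome 2 and 3.56 (3.05 to 4.12) on chromosome 3, the highest and lowest values. The share of peaks in pairs ran from 7.49% (6.75 to 8.27) on chromosome 3 to 9.13% (8.41 to 9.89) on chromosome 4. Within each chromosome, 58.0 to 66.9% of pairs lay within 1 gene, and the median gap was 183 to 201 bp.

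The same fragments placed on the other assembly, RcHzRDP12, gave 2236 pairs by the same limits, with 8.85% of 50543 peaks in pairs. Their median gap was 175.5 bp and their median summit distance 631 bp. The pairs were more even there, with median folds of 6.39 and 4.01, a median ratio of 1.46 and separate intervals in 17.9%, against 1.76 and 35.9% on RchiOBHm. This is not a replicate, since both lists come from 1 library, and no pair was matched between the assemblies. The RcHzRDP12 peaks lie on 7088 sequences, 1591 of them with a pair. Peaks beyond the end of a sequence cannot be seen, so the limit on nearby peaks does not work alike on both lists.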

How the data were processed

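The labels describe petals at the onset of flower opening, and list 1 library per antibody or input. Tools listed per the submitters' processing notes are MACS2, SICER, Bowtie2, Trim Galore and FastQC, with roles and settings not given in the sources used here. The tissue is taken as petal from the labels, although peak names in the files read flower. The authors deposited peaks of the single H3K9ac library on 2 assemblies. Their fold enrichment is a linear ratio, their p-values and q-values are deposited as −log10 values, and the deposited score is 10 times the −log10 q-value without its decimals. The lowest −log10 q-value was 1.31, which corresponds to a q-value threshold of 0.05.

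Starts deposited as counted from 0 are given counted from 1. Fragments at the summit were recovered from the fold and the Poisson p-value, within 0.002 in −log10 p, for 46594 of 46596 peaks, and for all 3930 twin peaks. On simulated peaks 100% of 3000 were recovered, and 100 of 100 planted pairs were found. These peaks were built with the formula that was then inverted, and the planted pairs met the limits by design. The simulation thus checks the code and not the recovery in these data. Its backgrounds and fragment counts did not reach the highest of the list. Depth in reads is not stated in the lists. Each fold interval is an exact 95% Poisson interval on those fragments at a fixed background. Intervals and shares treat fragments and peaks as independent.

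Genes came from the RefSeq table of RchiOBHm-V2, with 41273 genes, which has no strand, exons, product names or sequence. On the 7 chromosomes 62.2 to 66.4% of summits lay in a protein-coding gene, and 25.9 to 29.3% after a shift of 20 kb. Planned gene starts became gene ends, and product lists, motifs and divergent genes were not analysed, nor were the named pairs planned from promoter sequences and product lists. Where genes overlapped, as in 29 pairs, the shortest was used for distances. When both summits were equally far from their ends, the right peak was taken as the nearer.

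Named pairs are the 10 with the highest fold of the lower peak, the 5 with the largest ratio of folds among those with separate intervals, and the 5 with the narrowest and widest gaps, ties being broken by the lower fold. The members and lists were chosen with earlier results of these data known. Values were computed with scipy 1.17.1, pandas 2.3.3 and numpy 2.4.6 under Python 3.11.15, and plots were drawn with matplotlib 3.10.9.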

Additional observations from a re-analysis of the deposited data

Results flagged for a closer look

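The same limits on width, gap and spacing were also met by 5 pairs on sequences outside the 7 chromosomes, which hold 205 peaks that no comparison used. Their gaps were 119 to 207 bp. The highest was on the sequence named Chr0c44, from 73117 to 74908, with folds of 9.65 and 10.6, and the lowest on Chr0c03, from 248642 to 249441, with 3.08 and 2.12. Genes were not assigned there.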

How the results depend on the processing

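Of 70 recomputed values, 40 stayed within the interval of the reported value, or within 1.5 times for the number of pairs, and 30 moved. Only 27 of the 70 were shares with a direction, those of nearer or gene-side peaks being higher. Of these, 0 turned, that is fell below 50%, but some had intervals that include 50%. The other values have no direction that could turn. With a gap limit of 200 bp there were 1056 pairs, 9.38% had their gap at a gene end and 66.8% lay within 1 gene. A limit of 300 bp gave 12.5% at a gene end, and one of 600 bp gave 18.2%, with 58.3% within 1 gene. No other peak within 500 bp gave separate intervals in 33.6%, and widths below 1000 bp in 29.7%. Without a lower width there were 3352 pairs, with 12.4% at a gene end. Stricter heights moved most values. Using peaks with a −log10 q-value of at least 10 alone gave 482 pairs, 33.0% at a gene end, 41.5% within 1 gene, the nearer peak higher in 66.0% and separate intervals in 23.7%. Both peaks at that q-value gave 278 pairs with 36.0, 36.3, 58.4 and 26.6%, and both at a fold of at least 5 gave 283 pairs with 34.3, 39.9, 58.4 and 24.7%. The intervals of these nearer-peak shares, 48.2 to 68.1 and 48.8 to 67.6, include 50%, so the order was not resolved there. The same holds for the gene-side share with both peaks at that q-value, 63.2% (49.3 to 75.6). With the gap not widened, 10.3% lay at a gene end and the gene-side peak was higher in 55.2%, and widening by 300 bp gave 20.7%. In pairs with separate intervals the gene-side peak was higher in 75.3% and the nearer peak in 88.8%. The cause of these shifts was not tested. The shares within 1 gene, of nearer peaks and of separate intervals were recomputed under settings chosen after seeing the data, except for midpoints in place of summits. Alternatives on divergent genes were not run, because the table has no strand. No paired analysis was possible because each group is 1 library. A lower peak with 9 to 14 fragments limits each ratio, and gaps of 100 bp or less are not visible.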

Other observations

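Of the 1219 genes with a pair, 14 held 2 pairs. The shortest was LOC112179224 on chromosome 7, from 10673300 to 10677236, with 3937 bp, and the longest LOC112171102 on chromosome 6, from 24459825 to 24528591, with 68767 bp.

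In 2 of 1965 pairs (0.102%, 0.0123 to 0.367) the gap held a whole tRNA gene, both times one for isoleucine, TRNAI-AAU. Genes for tRNA are short and are transcribed by RNA polymerase III. On chromosome 6 the gene from 16679550 to 16679623 lay in a gap of 222 bp between peaks with folds of 4.98 and 5.03, and that from 58387986 to 58388059 in a gap of 359 bp between folds of 3.14 and 6.95. Of lone peaks, 8 of 18654 (0.0429%, 0.0185 to 0.0845) overlapped a tRNA gene, as did 3 of 2588 lone peaks of at least 1000 bp (0.116%, 0.0239 to 0.338). Gaps of wider-gap pairs did so in 5 of 1158 (0.432%, 0.140 to 1.005), so tRNA genes are not particular to the shorter gaps.

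Far inside long genes, pairs also occurred. In LOC112176076 on chromosome 7, from 18977527 to 19005009, folds of 10.6 (7.69 to 14.2) and 6.39 (4.22 to 9.32) lay 5761 and 7165 bp from the nearer end. In LOC112198892 on chromosome 4, from 16442257 to 16457642, the folds were 5.99 (4.39 to 7.998) and 8.80 (6.90 to 11.1) at 4065 and 4781 bp. In LOC112165138 on chromosome 5, from 4552563 to 4573276, they were 6.72 (5.08 to 8.73) and 5.85 (4.25 to 7.86) at 7277 and 6763 bp. These 3 genes were chosen after their values were seen, as the pairs over 2000 bp inside with the highest lower fold.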
